A study of Mus musculus with 13 samples.

Results

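The interleukin-1 family and its inflammasome were followed through 10 genes: the ligands Il1a, Il1b and Il18, the receptor antagonist Il1rn, the receptor genes Il1r1, Il1rap, Il1r2 and Il1rl1, the sensor Nlrp3 and the protease Casp1. The members were chosen by gene name, 10 of the 21056 genes present in all 4 deposited group tables. Of these, 9 passed the filter on low counts and were tested among 16940 genes. Il1rl1 had too few reads and is described by its levels.

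Brain RNA was sequenced from 13 male mice that carried CX3CR1creER/+ :Rosa26iDTR/+, a tamoxifen-activated Cre recombinase at the Cx3cr1 locus together with a Cre-dependent diphtheria toxin receptor. All mice received tamoxifen, in 2 doses at 7 to 8 weeks of age per the labels. After 30 days they were given either diphtheria toxin at 50 ng/g for 3 days, which kills cells that carry the receptor (DE), or normal saline (CON), and then either a sham operation was done or the middle cerebral artery was occluded for 60 min and reopened (tMCAO). The groups were sham_CON (saline and sham operation, n = 3), sham_DE (toxin and sham operation, n = 4), tMCAO_CON (saline and occlusion, n = 4) and tMCAO_DE (toxin and occlusion, n = 2). The occlusion protocol in the labels gives an age of 6 to 8 weeks, which cannot be squared with tamoxifen at 7 to 8 weeks and 30 days of waiting. The time from occlusion to sampling and the brain region are not stated in any source used here. Genotype labels number the Rosa locus differently from mouse to mouse and were read as 1 genotype. One library, tMCAO_CON replicate 4, is a sham operation in its treatment label and an occlusion in its title, and was grouped by its title. Its astrocyte markers (5 genes) summed to 1826.3 CPM, against 867.9 to 997.4 CPM in the sham libraries and 1371.3 to 1855.3 CPM in the other occluded libraries. The gap lay mostly in Gfap, at 667 to 1011.8 CPM in tMCAO_CON and 51.0 to 179.9 CPM in the sham libraries. Aldh1l1 and Aqp4 had higher means in tMCAO_CON than in sham_CON, and Slc1a3 (492 against 559 CPM) and Gja1 (114 against 150 CPM) lower ones. The series title names interleukin-1 receptor antagonist (IL-1RA) from microglia after ischemic stroke as the subject. All groups share the Cre allele, which sits in the Cx3cr1 gene, and the tamoxifen.

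Interleukin-1 alpha and interleukin-1 beta are early signals of tissue injury. Both bind the receptor chain encoded by Il1r1, which recruits the accessory chain encoded by Il1rap and signals through MyD88 to NF-kB. IL-1RA, encoded by Il1rn, occupies the same receptor without signalling, and the receptor encoded by Il1r2 binds the ligands without a signalling domain. NLRP3 senses cell damage and, through the adaptor ASC, activates caspase-1, which cleaves the precursors of interleukin-1 beta and interleukin-18. In the injured brain, microglia and infiltrating myeloid cells are known sources of interleukin-1, and endothelial cells are known to respond to it.

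Library totals ran from 16239763 to 22080367 counts. Csf1r, the receptor on which microglia depend for survival, stood at 76.3 to 97.4 counts per 1000000 counts of the scaled library total (CPM) in the saline libraries and at 6.07 to 16.0 CPM in the toxin libraries. The summed level of 11 microglia markers was 308 to 436.5 CPM with saline and 41.8 to 78.3 CPM with toxin, so the labelled depletion was visible in every toxin library, and the marker RNA was lowered without being absent. In these bulk samples fewer cells of a type and less RNA per cell cannot be told apart. Markers of border macrophages (7 genes) summed to 6.65 to 8.31 CPM in sham_CON, 14.1 to 24.5 in tMCAO_CON, 31.9 to 44.2 across sham_DE and 36.5 to 48.4 in tMCAO_DE. A pair of sham libraries stood apart in the summed level of 12 neutrophil markers, sham_CON replicate 2 at 46.3 CPM and sham_DE replicate 3 at 38.2 CPM, against 2.54 to 10.9 CPM in the other sham libraries. Both also had the highest red blood cell markers (5 genes) of the sham libraries, 29.9 and 31.6 CPM against 1.03 to 12.7 CPM. The occluded libraries ran from 0.679 to 37.3 CPM in these. Calls of members that change without that pair are named below, and calls of single list genes are not given for that fit. Without the pair 219 genes were called in sham_DE against sham_CON, against 1921 with all libraries. Markers of neurons, astrocytes and oligodendrocytes were abundant in every library, the labelled tissue being brain.

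In tMCAO_CON against sham_CON, 3 of the 9 tested members rose (Il1b, Il1rn and Il1r1) and none fell, where 8.44% of all tested genes were called, 5.14% higher and 3.31% lower. In tMCAO_DE against sham_DE, Il1r1 rose and Nlrp3 fell, 2 of 9 members, against 12.4% of all genes (6.59% higher, 5.84% lower). In sham_DE against sham_CON, Il1a fell and none rose. That is 1 of 9, against 11.3% of all genes (6.85% higher, 4.49% lower), a share close to that background. In tMCAO_DE against tMCAO_CON, Il1a, Il1rn and Nlrp3 fell and none rose, 3 of 9, against 18.6% of all genes (9.36% higher, 9.26% lower). A call means an adjusted p under 0.05 in edgeR's quasi-likelihood test with Benjamini-Hochberg adjustment over all tested genes. The 4 comparisons share samples (each group enters 2 of them) and are set side by side, not counted as separate evidence. The median log2 fold change of the 9 members was 1.25, 1.16, -0.08 and -0.56 in these 4 comparisons, beside 0.02, 0.00, 0.00 and -0.01 over all tested genes.

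Groups whose CPM did not overlap were counted in the same way. In tMCAO_CON against sham_CON, 6 of 9 members lay wholly higher (Il1a, Il1b, Il1rn, Il1r1, Il1r2 and Nlrp3) and none lower, against 23.6% of all genes. In tMCAO_DE against sham_DE, Il1r1 and Casp1 lay wholly higher and Nlrp3 lower, 3 of 9 members, against 37.2% of all genes, a share close to that background. In sham_DE against sham_CON, Il1b lay wholly higher and Il1a and Il18 lower, 3 of 9, against 22.9% of all genes. In tMCAO_DE against tMCAO_CON, 4 of 9 members lay wholly lower (Il1a, Il1rn, Il1rap and Nlrp3) and none higher, against 45.5% of all genes, which is again close to the background in total.

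**Figure D1:**
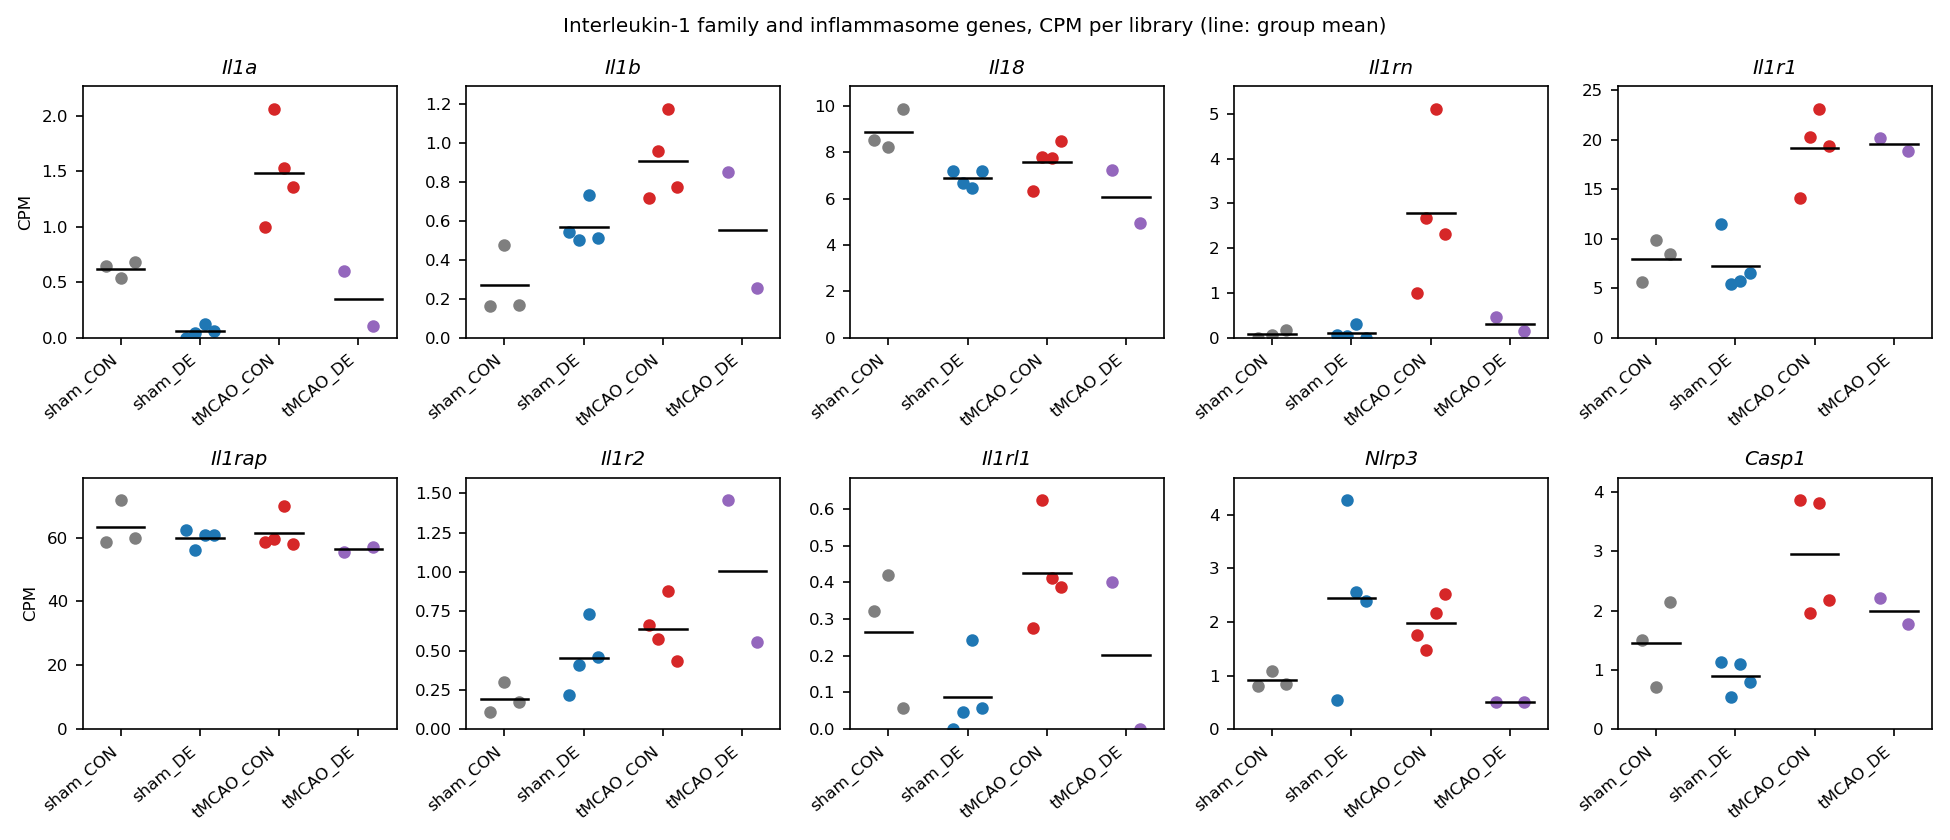
CPM of each of the 10 genes (y axis, linear from 0) in each library (points) of the 4 groups (x axis), with the group mean as a line. Il1rn is high only in the 4 tMCAO_CON libraries (0.993 to 5.12 CPM), Il1r1 is high in both occluded groups (14.1 to 23.1 CPM), and Il1rap lies between 55.5 and 71.6 CPM throughout.

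Promoter sequences of 4 members are shown: Il1a, Il1rn, Il1r1 and Nlrp3, which passed a test and hold a match to a factor that acts on genes of this pathway. RefSeq promoter windows (GRCm38.p6, the 250 bases before the annotated start, 15 windows for the 10 genes) were searched on both strands for AP-1 (TGANTCA), PU.1 (GAGGAAGT) and the NF-kB consensus. AP-1 letters were found in 1 window each of Il1a and Il1rn and in 6.75% of all 32851 windows, and the NF-kB consensus in 1 window each of Il1r1 and Nlrp3 and in 7.25%. The PU.1 letters were in none of the members' windows and in 2.44% of all. A match is a description of letters and not a measured site. The windows lie at chr2:129309973-129310222 (minus strand) for Il1a, chr2:24336610-24336859 for Il1rn, chr1:40266336-40266585 for the second start of Il1r1 and chr11:59541319-59541568 for the first start of Nlrp3 (plus strand). Each is written 5′ to 3′ in the direction of the gene, with the match in capitals: 12 to 6 bases before the start in Il1a, ending 135 bases before it in Il1rn, 232 to 223 in Il1r1 and 186 to 177 in Nlrp3.
Il1a promoter: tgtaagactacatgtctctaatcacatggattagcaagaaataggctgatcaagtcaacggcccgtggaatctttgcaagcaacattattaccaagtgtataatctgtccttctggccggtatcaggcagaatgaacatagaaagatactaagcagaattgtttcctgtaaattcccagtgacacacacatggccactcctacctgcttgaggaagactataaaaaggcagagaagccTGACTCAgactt
Il1rn promoter: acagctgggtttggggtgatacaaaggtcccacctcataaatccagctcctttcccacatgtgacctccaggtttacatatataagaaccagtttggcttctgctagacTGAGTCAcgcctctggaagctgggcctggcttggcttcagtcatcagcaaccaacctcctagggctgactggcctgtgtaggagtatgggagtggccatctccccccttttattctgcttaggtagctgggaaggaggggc
Il1r1 promoter: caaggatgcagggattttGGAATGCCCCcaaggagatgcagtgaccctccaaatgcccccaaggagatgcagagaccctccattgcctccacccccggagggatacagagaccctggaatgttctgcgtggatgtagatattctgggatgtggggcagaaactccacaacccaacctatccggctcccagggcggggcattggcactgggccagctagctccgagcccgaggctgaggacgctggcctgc
Nlrp3 promoter: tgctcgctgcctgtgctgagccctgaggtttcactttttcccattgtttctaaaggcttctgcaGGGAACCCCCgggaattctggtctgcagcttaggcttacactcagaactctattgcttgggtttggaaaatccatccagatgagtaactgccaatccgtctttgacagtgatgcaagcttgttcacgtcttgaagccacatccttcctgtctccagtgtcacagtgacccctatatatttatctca

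Il1a encodes interleukin-1 alpha, a ligand that is active without caspase-1 cleavage, and lies on chromosome 2 from 129299610 to 129309972 of GRCm38 (minus strand). It stood at 0.644, 0.538 and 0.678 CPM in sham_CON, 0, 0.0454, 0.122 and 0.0570 CPM across sham_DE, 0.993, 2.06, 1.53 and 1.36 CPM in tMCAO_CON, with 0.602 and 0.101 CPM in tMCAO_DE. Every sham_DE library lay below every sham_CON library, both tMCAO_DE libraries lay below every tMCAO_CON library, and every tMCAO_CON library lay above every sham_CON library. Il1a fell with the toxin in the sham brain (log2 fold change -3.37 ± 0.68 SE, edgeR adjusted p = 0.0112) and in the occluded brain (-2.06 ± 0.57, edgeR adjusted p = 0.0248). Removing both sham_CON replicate 2 and sham_DE replicate 3 ended the first call (edgeR adjusted p = 0.05), and removing tMCAO_DE replicate 2, the library with 2 counts, the second (edgeR adjusted p = 0.227, log2 fold change -1.30). The difference with occlusion did not pass, at 1.25 ± 0.45 with saline (edgeR adjusted p = 0.108) and 2.57 ± 0.80 with toxin (0.0524). The difference under saline passed with limma on log2 FPKM and with the compared groups alone. That under toxin passed with DESeq2, and in edgeR without sham_DE replicate 3 (adjusted p = 0.0483). Without that library or without tMCAO_DE replicate 2, which leaves 1 library in its group, the log2 fold change under toxin was 3.13 to 3.33. Over all fits that left out 1 library it ran from 0.831 to 3.33. Of the 14 counts in tMCAO_DE, 12 were in replicate 1. The fall in sham_DE rests on 4 counts in 4 libraries against 33 in 3, a ratio of pooled CPM of 0.0864 with a 95% counting interval of 0.0222 to 0.243.

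Il1b encodes interleukin-1 beta, the ligand released after caspase-1 cleavage, and neighbours Il1a on the same strand (chromosome 2, 129364570 to 129371139). Its levels were 0.161, 0.478 and 0.169 CPM in sham_CON, 0.541, 0.500, 0.731 and 0.513 across sham_DE, 0.717, 0.959, 1.18 and 0.776 in tMCAO_CON, with 0.853 and 0.253 in tMCAO_DE. All sham_DE libraries lay above all sham_CON libraries, the tMCAO_CON libraries lay above all sham_CON libraries, and the tMCAO_DE pair spanned most of the range. Il1b rose with occlusion under saline (1.74 ± 0.48, edgeR adjusted p = 0.0425). That call sits near the threshold: it ended on removal of any 1 tMCAO_CON library, of sham_CON 1 or 3, or of sham_DE 2, 3 or 4 (edgeR adjusted p = 0.0505 to 0.161), with a log2 fold change of 1.48 to 1.82 in those fits. The change with the toxin was 1.08 ± 0.50 in the sham brain (edgeR adjusted p = 0.176) and -0.70 ± 0.49 in the occluded brain (0.332), and the change with occlusion under toxin was -0.04 (95% interval -1.12 to 1.05). In the sham brain, where Il1a fell with the toxin, Il1b had 42 counts in sham_DE against 14 in sham_CON. Whether the 2 ligands differed in their response was not tested.

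The proportion of the ligands was also read within each library. On the FPKM scale (deposited by the authors and scaled to gene length and library size, which allows levels of different genes to be compared), Il1a over Il1b was 4.77, 1.34 and 4.77 in sham_CON and 0, 0.108, 0.199 and 0.132 across sham_DE. It was 1.65, 2.56, 1.55 and 2.08 in tMCAO_CON, with 0.841 and 0.476 in tMCAO_DE. Every saline library was above 1 and every toxin library below it. Their summed FPKM averaged 0.414 ± 0.044 (SD) in sham_CON, 0.267 ± 0.067 across sham_DE, 1.17 ± 0.29 in tMCAO_CON and 0.420 ± 0.368 in tMCAO_DE. These ratios are descriptions, with no test. Counts and FPKM together give the gene lengths behind the deposited values, which were 0.695 (Il18) to 1.61 (Il1rl1) times the annotated exonic length, so the order of levels of different genes holds for the authors' lengths.

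Il18 encodes interleukin-18, the other cytokine that caspase-1 matures (chromosome 9, 50554827 to 50581840, plus strand), and had the highest FPKM of the 10 genes. Its mean was 12 ± 1.1 FPKM in sham_CON, 9.46 ± 0.48 across sham_DE, 10.9 ± 1.2 in tMCAO_CON and 8.64 ± 2.35 in tMCAO_DE. In CPM it ran from 8.25 to 9.88 in sham_CON, 6.46 to 7.19 across sham_DE, 6.34 to 8.48 in tMCAO_CON, and was 7.23 and 4.96 in tMCAO_DE. All toxin libraries lay below all sham_CON libraries, while tMCAO_CON overlapped each of the other groups. No change passed the test: -0.37 ± 0.14 with toxin in the sham brain (edgeR adjusted p = 0.11), -0.22 ± 0.14 with occlusion under saline (0.377), -0.17 ± 0.17 with occlusion under toxin (0.539) and -0.32 ± 0.17 with toxin in the occluded brain (0.193).

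Il1rn encodes IL-1RA and lies on chromosome 2 from 24336853 to 24351494 (plus strand). Secreted and intracellular forms of the protein share this gene count. It was at 0, 0.0598 and 0.169 CPM in sham_CON and 0.0541, 0.0454, 0.305 and 0 across sham_DE. It reached 0.993, 2.68, 5.12 and 2.33 CPM in tMCAO_CON, with 0.452 and 0.152 in tMCAO_DE. All 4 tMCAO_CON libraries lay above every other library, while the 3 remaining groups overlapped. Il1rn rose with occlusion under saline (5.08 ± 0.87, edgeR adjusted p = 0.00395), from 4 counts in 3 libraries to 209 counts in 4, and this was the only called change of a member that held under all 21 alternatives (adjusted p at most 0.0232). The size is uncertain, since the pooled ratio of 36.2 has a 95% counting interval of 13.9 to 134.

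In the toxin-treated occluded brain Il1rn was lower than in the saline-treated one (-3.17 ± 0.81, edgeR adjusted p = 0.0185), with 12 counts in 2 libraries against 209 in 4. The call ended without tMCAO_DE replicate 1 (edgeR adjusted p = 0.0664, log2 fold change -4.13) or replicate 2 (0.172, -2.60), which leaves that group with 1 library assumed to vary like the others. Neither occlusion under toxin (1.60 ± 1.08, edgeR adjusted p = 0.362) nor the toxin in the sham brain (0.31 ± 1.30, 0.907, 95% interval -2.50 to 3.12) gave a difference past the test. The difference between the occlusion effects with and without depletion was -3.48 ± 1.59 (unadjusted p = 0.0474, edgeR adjusted p = 0.511) and did not pass. The 11 microglia markers summed to 329 to 436.5 CPM in tMCAO_CON and to 54.2 and 59.0 CPM in tMCAO_DE. The part of that difference in the Il1rn result was not tested.

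Set against its ligands, the antagonist had the highest share in tMCAO_CON. The FPKM of Il1rn over the sum of Il1a and Il1b was 0, 0.0155 and 0.0504 in sham_CON, 0.0290, 0.0238, 0.101 and 0 across sham_DE, 0.152, 0.228, 0.495 and 0.282 in tMCAO_CON, with 0.0835 and 0.118 in tMCAO_DE. Every tMCAO_CON library exceeded every library of the other groups. Both tMCAO_DE libraries exceeded all sham_CON libraries but overlapped sham_DE, the toxin group without occlusion, whose replicate 3 was at 0.101. The tMCAO_DE ratios rest on 9 and 3 counts of Il1rn. The position of these ratios against 1 depends on the length used, 8128 bases for Il1rn in the deposited FPKM against 5535 annotated exonic bases, while the order of libraries does not depend on the length of Il1rn. In counts, Il1rn exceeded its ligands together in tMCAO_CON 3 (87 against 46) and tMCAO_CON 4 (48 against 44).

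**Figure D2:**
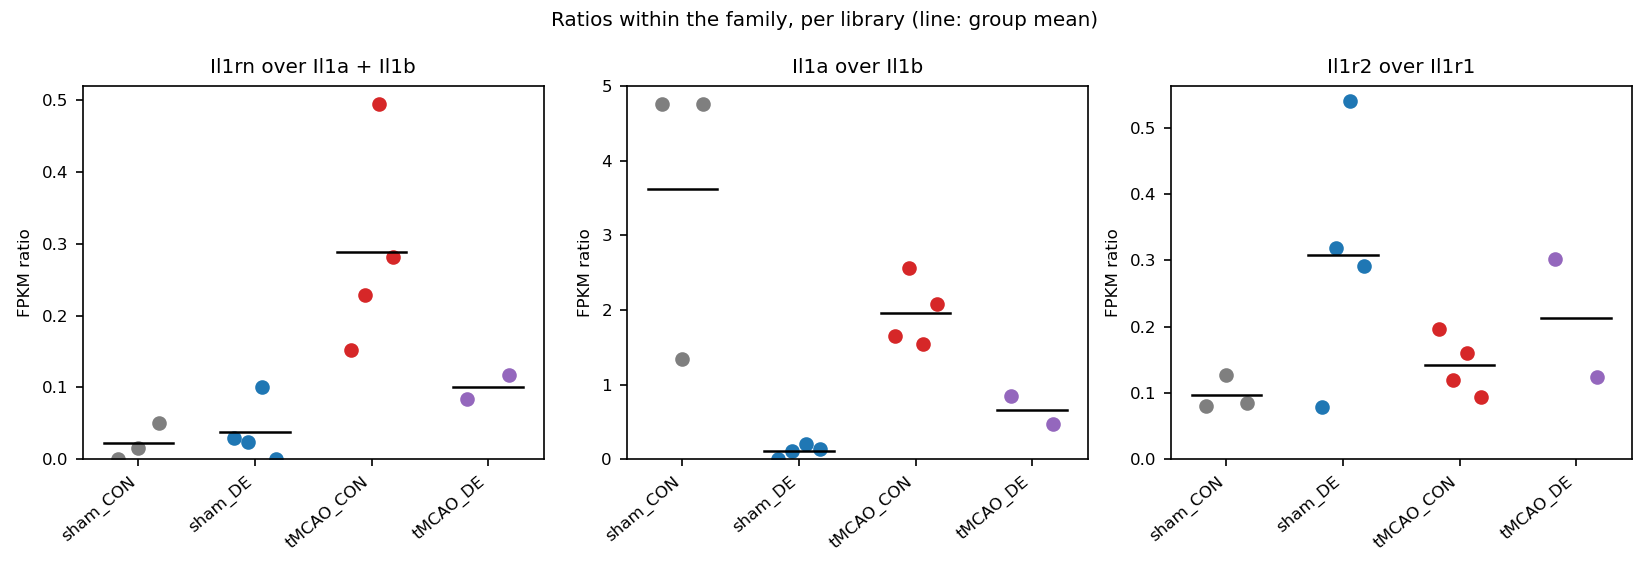
FPKM ratios per library (points; y axes linear from 0) in the 4 groups (x axes), with group means as lines: Il1rn over Il1a plus Il1b, Il1a over Il1b, and Il1r2 over Il1r1. The first ratio is 0.152 to 0.495 in tMCAO_CON and at most 0.118 elsewhere, and the second is above 1 in each saline library and below 1 in each toxin library.

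Il1r1 encodes the signalling receptor of interleukin-1 (chromosome 1, 40225080 to 40317257, plus strand). It stood at 5.63, 9.81 and 8.41 CPM in sham_CON and 11.5, 5.36, 5.67 and 6.55 across sham_DE, against 14.1, 20.2, 23.1 and 19.3 in tMCAO_CON, with 20.2 and 18.9 in tMCAO_DE. Every occluded library lay above every sham library, and within each operation the saline and toxin libraries overlapped. Il1r1 rose with occlusion under saline (1.27 ± 0.26, edgeR adjusted p = 0.0111) and under toxin (1.43 ± 0.28, edgeR adjusted p = 0.00688). Leaving out sham_CON replicate 1 ended the first call (edgeR adjusted p = 0.0557, log2 fold change 1.07). The second ended without tMCAO_DE replicate 1 but not without replicate 2. Those 2 fits leave 1 library in that group, and their log2 fold changes were 1.38 to 1.47. With the toxin the log2 fold change of Il1r1 was -0.13 (95% interval -0.70 to 0.44, edgeR adjusted p = 0.789) in the sham brain and 0.03 (-0.57 to 0.63, 0.959) in the occluded brain, neither past the test. The difference between the occlusion effects was 0.15 (95% interval -0.67 to 0.98, edgeR adjusted p = 0.93). Summed endothelial markers (7 genes) were 264 to 325.6 CPM in sham_CON, 229 to 292 across sham_DE, 283 to 341 in tMCAO_CON, with 313 and 327 in tMCAO_DE. The sum is carried by Flt1 and Slco1a4, which did not pass with occlusion (Flt1 -0.21 with saline and -0.02 with toxin, Slco1a4 -0.26 and -0.22). Of the 7 markers, 2 rose under saline and 4 under toxin, and none fell, where 5.14% and 6.59% of all tested genes were higher. Pecam1, an adhesion molecule of endothelial cells, rose by 0.70 ± 0.15 (edgeR adjusted p = 0.0126) under saline and 0.75 ± 0.16 (0.011) under toxin, and Ly6c1 by 0.78 ± 0.13 (0.00339) and 0.90 ± 0.14 (0.00201). Cdh5 (0.84 ± 0.17, edgeR adjusted p = 0.00871) and Cldn5 (0.72 ± 0.13, 0.00586), which encode junction proteins, rose under toxin. The calls of Ly6c1 held whichever library was left out, that of Pecam1 under saline ended without sham_CON 1 or 3, those of Pecam1 and Cdh5 under toxin without either tMCAO_DE library, and that of Cldn5 without tMCAO_DE 2. The part of these markers in the change of Il1r1 was not tested.

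Il1rap encodes the accessory chain shared by several receptors of the family (chromosome 16, 26581704 to 26730117, plus strand). Membrane-bound and soluble forms share its count. It ran from 58.5 to 71.6 CPM in sham_CON, 56.0 to 62.3 across sham_DE, 57.9 to 69.9 in tMCAO_CON, and was 55.5 and 57.1 in tMCAO_DE. The groups lay close together, and the tMCAO_DE pair lay below all saline libraries. None of its changes passed, and the intervals were narrow: -0.04 (95% interval -0.23 to 0.15, edgeR adjusted p = 0.816) with occlusion under saline, -0.09 (-0.31 to 0.13, 0.602) with occlusion under toxin, -0.08 (-0.27 to 0.11, 0.589) with toxin in the sham brain and -0.13 (-0.34 to 0.09, 0.4) in the occluded brain. Per length, the accessory chain stood at 4.06 FPKM in sham_CON and 4.2 in tMCAO_CON, while Il1r1 stood at 0.782 and 2.01 FPKM.

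Il1r2 encodes the decoy receptor (chromosome 1, 40074079 to 40125231, plus strand). Its levels were 0.107, 0.299 and 0.169 CPM in sham_CON, 0.216, 0.409, 0.731 and 0.456 across sham_DE, 0.662, 0.575, 0.882 and 0.436 in tMCAO_CON, with 1.46 and 0.557 in tMCAO_DE. All occluded libraries lay above all sham_CON libraries, and sham_DE overlapped each of the other groups. No change passed, with values of 1.71 ± 0.56 for occlusion under saline (edgeR adjusted p = 0.0765), 1.16 ± 0.50 for occlusion under toxin (0.146), 1.21 ± 0.58 for toxin in the sham brain (0.184) and 0.66 ± 0.48 in the occluded brain (0.355). Among the alternatives, occlusion under saline passed with limma on log2(FPKM + 0.1). The FPKM of Il1r2 over Il1r1 was 0.0798 to 0.128 in sham_CON, 0.0790 to 0.540 across sham_DE, 0.0945 to 0.197 in tMCAO_CON, with 0.302 and 0.124 in tMCAO_DE, so the decoy was below the signalling receptor in each library.

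Il1b and Il1r2 shared the library in which they were highest. In each of the 4 groups, that was the library with the highest summed neutrophil markers: sham_CON 2 (46.3 CPM), sham_DE 3 (38.2 CPM), tMCAO_CON 3 (12.9 CPM) and tMCAO_DE 1 (16.8 CPM, against 4.05 CPM in replicate 2). Of the 16940 tested genes, 1.28% were highest in that library in all 4 groups. None of the other 8 members was. Of the 12 neutrophil markers, between 1 and 7 were at 0 in each library, Elane and Ltf among them in both tMCAO_DE libraries. Other cell types also had their highest marker sum in these libraries. Of 9 marker lists, neutrophils included, sham_CON 2 was the highest of its group for 6, sham_DE 3 for 4, tMCAO_CON 3 for 7 and tMCAO_DE 1 for 4. Red blood cell markers were among them in sham_CON 2, sham_DE 3 and tMCAO_DE 1 (29.9, 31.6 and 7.43 CPM). They were not in tMCAO_CON 3 (7.82 CPM, against 37.3 CPM in tMCAO_CON 1). The 7 lists highest in tMCAO_CON 3 included microglia (436.5 CPM), border macrophages (24.5 CPM) and monocytes (5.88 CPM). Csf3r, a receptor gene on the neutrophil list, made up 9.0 of the 12.9 CPM there, and it fell with the toxin in the sham brain (-4.01 ± 0.47, edgeR adjusted p = 0.00051), as all 11 microglia markers did. Without Csf3r the same libraries had the highest neutrophil sum, at 35.6, 36.9, 3.94 and 15.2 CPM. This pattern was noticed in the values, and the part of any of these cell types in the results for Il1b and Il1r2 was not tested. Without sham_CON 2 and sham_DE 3 together, neither gene's call changed in any of the comparisons.

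Il1rl1 encodes ST2, the receptor of interleukin-33 (chromosome 1, 40429570 to 40465415, plus strand), in membrane-bound and soluble forms that share its count. It had 14 counts in sham_CON, 6 across sham_DE, 33 in tMCAO_CON and 8 in tMCAO_DE, and did not pass the filter on low counts. In CPM the ranges were 0.0565 to 0.419, 0 to 0.244, 0.276 to 0.623 and 0 to 0.402, and all neighbouring groups overlapped. With no filter, none of the changes passed, the largest being -1.62 ± 1.0 for the toxin in the sham brain (edgeR adjusted p = 0.332).

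Nlrp3 encodes the inflammasome sensor (chromosome 11, 59541568 to 59566956, plus strand). It stood at 0.804, 1.08 and 0.847 CPM in sham_CON, at 0.541, 4.27, 2.56 and 2.39 across sham_DE, at 1.77, 1.49, 2.18 and 2.52 in tMCAO_CON, and at 0.502 and 0.506 in tMCAO_DE. In sham_DE, 3 of 4 libraries lay above every sham_CON library and replicate 1 lay below all of them. Both tMCAO_DE libraries lay below every library of the other groups. The group order thus ran from sham_DE through tMCAO_CON and sham_CON to tMCAO_DE.

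Nlrp3 was lower in tMCAO_DE than in sham_DE (-2.27 ± 0.61, edgeR adjusted p = 0.0298) and than in tMCAO_CON (-1.96 ± 0.62, edgeR adjusted p = 0.042). These rest on 20 counts in 2 libraries, and neither call was stable. The first ended in 8 of 21 alternatives, among them without sham_DE 2 (edgeR adjusted p = 0.0587), tMCAO_DE 1 (0.167) or tMCAO_DE 2 (0.176), without sham_CON 2 and sham_DE 3 together, and with limma on log2 FPKM. The second ended in 14 of 21, among them without any 1 of sham_CON 1 to 3, sham_DE 3 or 4, tMCAO_CON 1, 3 or 4 and either tMCAO_DE library (edgeR adjusted p = 0.0513 to 0.209), again without that pair together and with limma. With the toxin the log2 fold change of Nlrp3 in the sham brain was 1.43 ± 0.49 (edgeR adjusted p = 0.0756). It passed with DESeq2, and in edgeR without sham_DE 1 (adjusted p = 0.00184, log2 fold change 1.77). Occlusion under saline gave 1.13 ± 0.49 (edgeR adjusted p = 0.185), which passed without sham_DE 1 (0.029) and with the compared groups alone.

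Nlrp3 also had the lowest unadjusted p of the members for the difference between the occlusion effects. Occlusion gave a log2 change of 1.13 with saline and -2.27 with toxin, and their difference was -3.40 ± 0.79 (unadjusted p = 0.000824, edgeR adjusted p = 0.202). None of the 9 members passed this test in edgeR, where 0.0472% of all genes were called (0.0059% higher, 0.0413% lower), and 3 had an unadjusted p under 0.05 (Il1b, Il1rn and Nlrp3). DESeq2 called 1 member, Nlrp3 (adjusted p = 0.00867), and edgeR called it without sham_DE 1 (adjusted p = 0.0157). The adjusted p of this result ran from 0.00867 to 0.54 over all alternatives.

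Casp1 encodes the protease that the inflammasome activates (chromosome 9, 5298517 to 5307265, plus strand). It stood at 1.5, 0.718 and 2.15 CPM in sham_CON, 1.14, 0.545, 1.1 and 0.798 across sham_DE, 3.86, 1.97, 3.82 and 2.18 in tMCAO_CON, with 2.21 and 1.77 in tMCAO_DE. Both tMCAO_DE libraries lay above all sham_DE libraries, and the saline groups overlapped through sham_CON replicate 3 and tMCAO_CON replicate 2. No change passed: 1.01 ± 0.37 with occlusion under saline (edgeR adjusted p = 0.115), 1.16 ± 0.43 under toxin (0.092), -0.72 ± 0.40 with toxin in the sham brain (0.255) and -0.56 ± 0.41 in the occluded brain (0.355). Among the alternatives, occlusion under saline passed with limma on log2(FPKM + 1) and with a replicate block, and occlusion under toxin with that block.

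**Figure D3:**
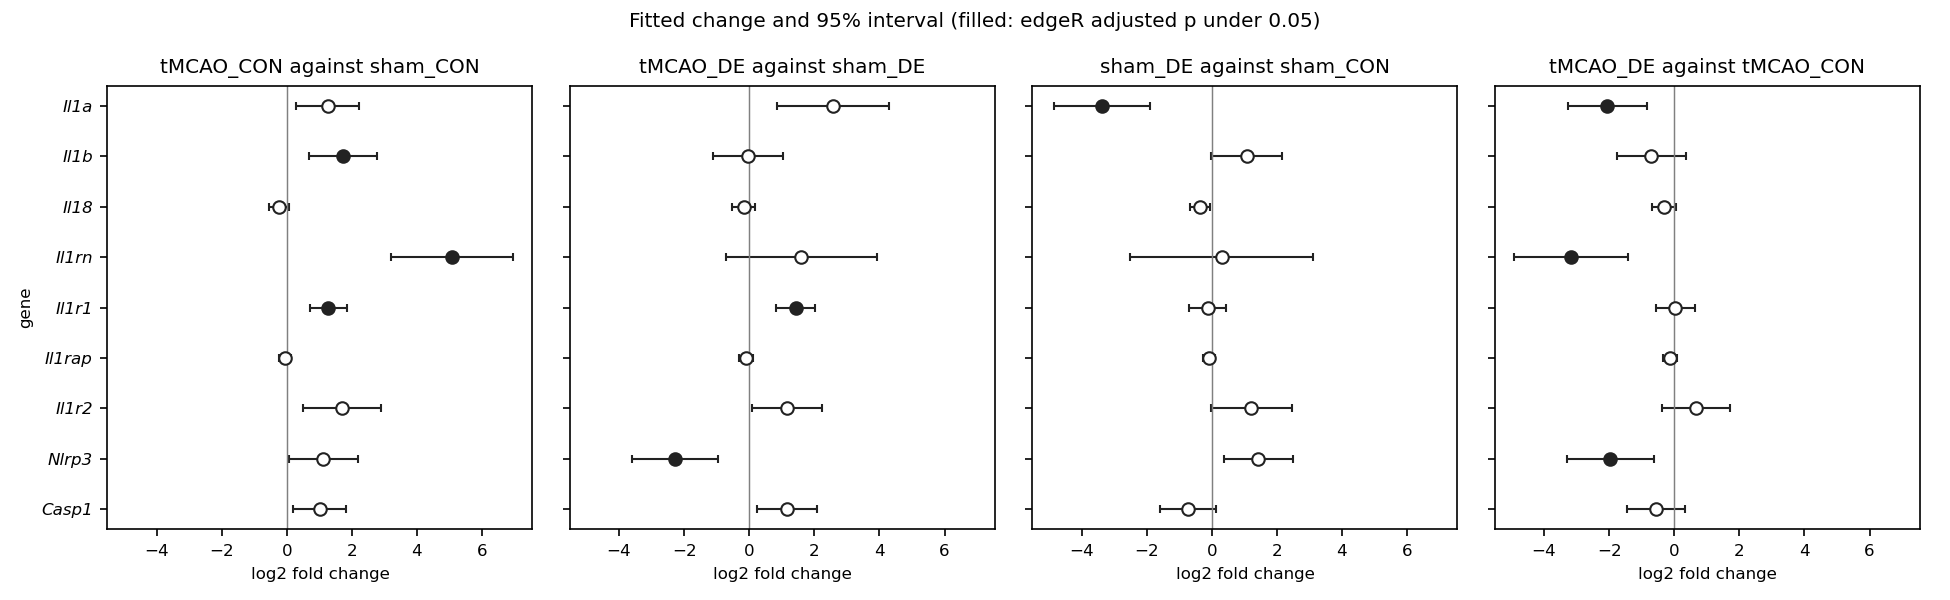
Log2 fold change (x axis) of the 9 tested genes (y axis) in 4 comparisons (panels), as points with 95% intervals from edgeR. Filled points passed the test. Il1r1 lies right of 0 in both occlusion panels (1.27 and 1.43), Il1rn only in the saline one as a filled point (5.08), and the interval of Il1rap is the narrowest in each panel.

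The tMCAO_DE group has 2 libraries, and they differed in several members. Of the 10 genes 8 were higher in replicate 1, while 51.5% of all tested genes were. The CPM ratio of replicate 1 to replicate 2 was 5.95 for Il1a (95% counting interval 1.33 to 54.8), 3.37 for Il1b (1.19 to 11.7) and 2.62 for Il1r2 (1.27 to 5.80). For Il1rn it was 2.975 (0.743 to 17.1), on 9 and 3 counts, an interval that includes 1. Il1rl1 had 8 counts in replicate 1 and 0 in replicate 2. The ratio was 1.247 (0.782 to 2.002) for Casp1 and 0.992 (0.37 to 2.655) for Nlrp3. For Il1r1 it was 1.07 (0.93 to 1.23). For Il18 it was 1.46 (1.12 to 1.90) and for Il1rap 0.971 (0.893 to 1.06). Among the genes with a ratio whose interval excludes 1, the pair was thus far apart for Il1a, Il1b and the decoy receptor. These rest on 2 to 29 counts per library. The pair was less far apart for Il18, and close together for both receptor chains.

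Among the family's other ligands and receptors, 7 of 13 listed genes were in the tables and all 7 were tested. Il33, the ligand of ST2, rose with occlusion under saline (27.5 ± 15.4 to 66.2 ± 26.3 CPM, 1.26 ± 0.35, edgeR adjusted p = 0.0442), 1 of 7 higher and none lower, where 5.14% of all genes were higher and 3.31% lower. That call ended on leaving out any 1 of 10 libraries (edgeR adjusted p = 0.0511 to 0.169), the exceptions being sham_CON 1, sham_DE 1 and tMCAO_CON 1. Il1rapl2, a receptor-like gene of the family, was the 1 lower gene in tMCAO_DE against sham_DE (-0.91 ± 0.19, edgeR adjusted p = 0.0099) and against tMCAO_CON (-0.77 ± 0.19, edgeR adjusted p = 0.016), and both calls ended without tMCAO_DE 1 (0.125 and 0.156). In these comparisons 5.84% and 9.26% of all genes were lower. In sham_DE against sham_CON none of the 7 passed in edgeR or in DESeq2, and 1 had an unadjusted p under 0.05.

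Of the other inflammasome genes, 14 of 16 listed were tested. With the toxin, 7 fell and 1 rose in the sham brain, and 7 fell and 1 rose in the occluded brain, with list medians of -0.96 and -1.04 beside about 0 over all genes. Of all genes, 4.49% and 9.26% were lower. Over all alternatives, among them the fit without sham_CON 2 and sham_DE 3, 2 to 7 fell in the sham brain. Leaving out 1 library gave 3 to 7 lower genes in the sham brain, with 3 on removal of any sham_CON library or of sham_DE 2 or 4. In the occluded brain it gave 2 to 8, with 2 on removal of either tMCAO_DE library and 4 without tMCAO_CON 3. Pycard, which encodes the adaptor ASC, was at 1.60 ± 0.26 CPM in sham_CON, 0.697 ± 0.317 across sham_DE, 4.47 ± 0.58 in tMCAO_CON and 0.479 ± 0.038 in tMCAO_DE. It rose with occlusion under saline (1.48 ± 0.28, edgeR adjusted p = 0.00651) and was lower with toxin in the occluded brain (-3.21 ± 0.38, edgeR adjusted p = 0.000515), and both calls held whichever library was left out. Nlrp1b (-3.56 ± 0.66), Naip6 (-2.24 ± 0.43) and Naip5 (-1.77 ± 0.25), sensors of the same class as NLRP3, fell in sham_DE. Nlrp1b (-3.20 ± 0.67) and Naip2 (-2.59 ± 0.60) fell in tMCAO_DE against tMCAO_CON, both calls ending without either tMCAO_DE library. The Naip and Nlrp1 genes have close copies, which makes their counts uncertain. Txnip, a thioredoxin inhibitor that binds NLRP3, was the gene that rose with toxin in both operations (0.68 ± 0.18 and 0.75 ± 0.20) and also the 1 of 14 that rose with occlusion under toxin (0.68 ± 0.20). Its calls ended without 1 of 6 libraries, without tMCAO_DE 2, and without 1 of 6 libraries, in that order (edgeR adjusted p up to 0.366). Casp4, the mouse caspase-11 gene, rose with occlusion under saline (2.84 ± 0.64, edgeR adjusted p = 0.0168), which with Pycard made 2 of 14, and that call ended without any 1 sham_CON library (0.0603 to 0.0648). The summed microglia markers fell in the same comparisons as the 7 genes in each, from 308 to 352 down to 41.8 to 78.3 CPM in the sham brain, and their part in these results was not tested.

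Of 18 genes that carry the signal below the receptor, 4 rose with occlusion under saline and none fell, and 6 rose and 1 fell under toxin, where 5.14% and 6.59% of all genes were higher. Leaving out 1 library gave 1 to 5 higher genes under saline, with 1 on removal of any sham_CON library, sham_DE 4 or tMCAO_CON 2, 3 or 4 and 2 on removal of either tMCAO_DE library. Under toxin it gave 2 to 6, with 3 without tMCAO_DE 1 and 2 without tMCAO_DE 2. Myd88, the adaptor of the receptor, went from 5.29 ± 0.83 to 13.8 ± 1.7 CPM with saline (1.38 ± 0.16, edgeR adjusted p = 0.000378) and from 4.49 ± 0.88 to 10.6 ± 0.3 CPM with toxin (1.24 ± 0.18, edgeR adjusted p = 0.0013), and neither call depended on 1 library. Map3k8, a kinase of the same pathway, rose under toxin by 1.17 ± 0.23 and Irak3, an inhibitor of it, by 1.16 ± 0.34, while Ikbkb, an NF-kB activating kinase, fell by 0.38 ± 0.09. Those 3 calls ended without tMCAO_DE 2 (Map3k8), 1 of 6 libraries (Irak3) or tMCAO_DE 1 (Ikbkb). Rela (0.34 ± 0.09) and Irak1 (0.30 ± 0.09) rose under saline, in calls that ended on leaving out 1 of 11 and 1 of 9 libraries. With toxin, 2 of 18 rose in the sham brain (Tab1 0.34 ± 0.09 and Rela 0.32 ± 0.09), in calls that ended on leaving out 1 of 9 and 1 of 11 libraries. In the occluded brain 3 rose (Irak2 0.92 ± 0.23, Tab1 0.48 ± 0.10 and Tollip 0.34 ± 0.09) and Ikbkb fell by 0.33 ± 0.09. These 4 calls ended without either tMCAO_DE library, and that of Ikbkb also without tMCAO_CON 1. The 4 of 18 called in the occluded brain stand beside 18.6% of all genes, a share close to that background, and the 2 of 18 in the sham brain beside 11.3%, also close.

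Of 14 tested genes that interleukin-1 can induce, 9 rose with occlusion under saline, 7 with occlusion under toxin, 4 with toxin in the sham brain and 3 with toxin in the occluded brain, and none fell. Of all genes, 5.14%, 6.59%, 6.85% and 9.36% were higher, and the total called in the last comparison, 18.6%, is close to 3 of 14. Over all alternatives, among them the fit without sham_CON 2 and sham_DE 3, 1 to 4 rose with toxin in the sham brain. Leaving out 1 library gave 6 to 10, 2 to 7, 2 to 4 and 0 to 4 higher genes. The second count was 2 without tMCAO_DE 1 and 3 without tMCAO_DE 2, the third was 2 without sham_CON 3, and the fourth was 0 without either tMCAO_DE library. Under saline the largest changes were those of Sele, an endothelial adhesion molecule (5.40 ± 0.77, edgeR adjusted p = 0.00135), Ccl2, a monocyte chemokine (4.96 ± 0.67, edgeR adjusted p = 0.000962) and Lcn2, a product of reactive astrocytes and neutrophils (3.94 ± 0.63, edgeR adjusted p = 0.0026). Under toxin they were Il6 (5.51 ± 1.24), Lcn2 (4.06 ± 0.56) and Saa3 (3.01 ± 0.91), the calls of Il6 and Saa3 ending without either tMCAO_DE library and that of Saa3 without any of 9 others. Cxcl1, a neutrophil chemokine, was at 0.109 ± 0.107 CPM in sham_CON, 2.71 ± 0.68 across sham_DE, 1.60 ± 1.21 in tMCAO_CON and 6.62 ± 0.92 in tMCAO_DE. It was higher with toxin in the sham brain (4.51 ± 0.76, edgeR adjusted p = 0.00567) and in the occluded brain (2.06 ± 0.51, edgeR adjusted p = 0.0161), the latter call ending without either tMCAO_DE library (0.0887 and 0.0958). Nfkbiz (0.58 ± 0.18) and Nfkbia (0.58 ± 0.18), regulators of NF-kB, were the other 2 that rose in the occluded brain, in calls that ended on leaving out 1 of 5 and 1 of 6 libraries. Ccl2 (3.20 ± 0.74) and Icam1 (2.39 ± 0.32) also rose with toxin in the sham brain, the call of Ccl2 ending without any 1 sham_CON library (0.0564 to 0.0602). These genes respond to several other signals too, and none of the lists had a called interaction gene in edgeR (0.0472% of all genes).

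The genes whose profile over the 13 libraries was most like that of a member are given as a description. Likeness was the root mean square difference of log2 CPM, each gene centred on its own mean, among 14811 genes with a mean of at least 1 CPM. For Il1a these were Fcgr3 (0.443), Tbxas1 (0.476) and Cyth4 (0.534), and for Il1rn Cd72 (0.659), C5ar1 (0.761) and Mx1 (0.767). For Il1r1 they were Apobec3 (0.197), Igfbp7 (0.219) and Lrrc32 (0.25), and for Il1b 4833418N02Rik (0.378), Scube2 (0.388) and Kif18a (0.408). Cd72 had means of 0.639 ± 0.098, 0.607 ± 0.116, 5.52 ± 2.02 and 0.932 ± 0.244 CPM in sham_CON, sham_DE, tMCAO_CON and tMCAO_DE, and Igfbp7 had 17.4 ± 6.4, 16.1 ± 4.7, 43.4 ± 11.3 and 43.6 ± 0.1 CPM.

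**Figure D4:**
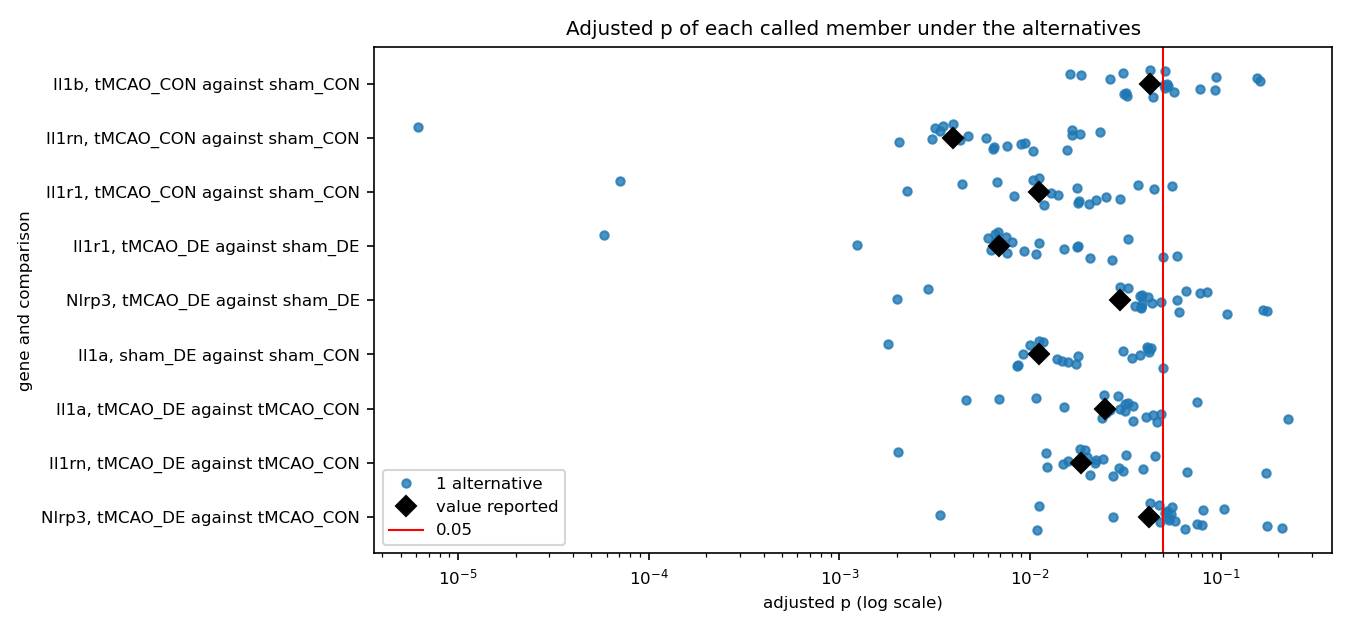
Adjusted p (x axis, log scale) of each of the 9 called changes of a member (y axis), as reported (diamonds) and under each alternative (circles), with the threshold of 0.05 as a line. Il1rn in tMCAO_CON against sham_CON stays left of the line throughout (at most 0.0232), and Nlrp3 in tMCAO_DE against tMCAO_CON crosses it in 14 of 21 alternatives.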

How the data were processed

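Libraries were made from total RNA with a TruSeq kit as paired-end libraries, per the labels' protocols. The authors deposited 4 group tables with raw counts and FPKM values per gene and library. The build mm10, Cuffdiff and Cufflinks 2.1.1 are named in the submitters' processing notes. An aligner, an annotation, a counting tool and the use of strand are not stated in any source used here. Il1a, Il1b and Il1rap overlap exons of a gene on the other strand (Gm14023, Il1bos and Gm20319, by 222, 25 and 552 bases), so reads of these pairs cannot be told apart without strand. The 2 pairs of tables hold 22110 and 22160 entries, from which 25 and 26 date-like names were dropped, and 27 and 26 symbols with more than 1 entry were summed.

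Counts were tested with edgeR 4.0.16 (R 4.3.3; TMM factors, filterByExpr with a minimum count of 10 and a smallest group of 2, quasi-likelihood test) in 1 model of 4 group means over 13 libraries, with Benjamini-Hochberg adjustment. The common biological coefficient of variation was 15.2%. CPM are counts divided by the TMM-scaled library total, times 1000000. Errors beside log2 fold changes are standard errors, and those beside levels are SD. Intervals on ratios of counts cover counting error only. On data simulated for tMCAO_CON against sham_CON over 16610 genes, 94% of 2-fold and 100% of 4-fold changes were recovered, with 3.96% false calls. The changed genes were drawn only from genes with a mean of at least 1 CPM, and every gene was given the common variation of 15.2%. These shares therefore do not cover members at lower levels or with a wider spread. Alternatives were RLE scaling, no filter, DESeq2 1.42.0, limma 3.58.1 on log2(FPKM + 0.1) and log2(FPKM + 1), a replicate block, the compared groups alone, and leaving out each library or the pair sham_CON 2 and sham_DE 3.

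Animal codes differ between libraries and nothing more is said of their origin, so p-values measure the spread between these samples. No 2 libraries of the same group agreed within sampling noise, and libraries of different groups were not compared in this way. The members and gene lists were chosen with earlier results of these data known. All 10 members are named, and from each other list, per comparison, the called genes with the largest change (at most 3 in each direction); for Il1a, Il1b, Il1rn and Il1r1 the 3 genes of most similar profile. Coordinates are from GENCODE M21 (GRCm38).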

Additional observations from a re-analysis of the deposited data

Results flagged for a closer look

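Il1rap in tMCAO_CON had 1 library far from the other 3: replicate 3 was at 69.9 CPM, against 57.9, 58.6 and 59.5 CPM. The gap was larger than Dixon's critical value for 4 samples. Groups of 4 gave 20 sets of values over the 10 genes, and chance puts about 1 in 20 past that value.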

How the results depend on the processing

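Of 930 values of members under the alternatives, 839 kept their direction and their side of the threshold, 40 lost a call, 16 gained one and 35 changed sign, none of the last with a call. The number of members called in tMCAO_CON against sham_CON was 5 with limma at either pseudocount and with the compared groups alone. In tMCAO_DE against sham_DE it was 1 in those fits and without sham_CON 2 and sham_DE 3. In sham_DE against sham_CON it was 2 with DESeq2 and 0 without that pair or with the compared groups alone, a fit in which Il1a did not pass the filter. For the interaction it was 1 with DESeq2. Over all genes, tMCAO_DE against sham_DE gave 1137 with the compared groups alone, sham_DE against sham_CON gave 645 there and 219 without the pair, and the interaction gave 107 with DESeq2, 23 and 32 with limma (pseudocounts 0.1 and 1) and 1 without the pair. Leaving out 1 library at a time gave 1 to 4, 0 to 3, 1 to 2 and 0 to 3 called members in the 4 comparisons in the order of the report and 0 to 1 for the interaction; over all genes the ranges were 564 to 1814, 453 to 2096, 591 to 3725, 346 to 3873 and 1 to 15. The cause was not tested, beyond the smaller number of libraries in these fits.

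Same-numbered libraries did not deviate together (r from -0.064 to 0.106 over 16 pairs, median 0.032), so the numbers were not taken as pairs. With a replicate block, 1341 genes passed in tMCAO_DE against sham_DE, 823 in sham_DE against sham_CON and 2 for the interaction, and 1 member passed in tMCAO_DE against tMCAO_CON. The block ended the calls of Il1b with occlusion under saline, Nlrp3 in tMCAO_DE in both comparisons and Il1a in the occluded brain, and brought those of Casp1 with occlusion under saline and under toxin.

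Sign changes were these, as log2 fold changes. With limma at pseudocounts 0.1 and 1, Il1rap with occlusion under saline was 0.05 and 0.041, and the interaction was -0.101 and -0.245 for Il1a and -0.02 and -0.014 for Il18; at 1 it was 0.013 for Il1r2 and -0.079 for Casp1. Without sham_CON 2 and sham_DE 3, Il1rap was 0.053 with occlusion under saline, Il1b 0.097 with occlusion under toxin, and with toxin in the sham brain Il1rn was -1.127, Il1r1 0.147 and Il1rap 0.01; the interaction of Il1r1 was -0.121. Leaving out 1 library gave -0.116 to 0.053 for Il1rap with occlusion under saline, and -1.145 to 0.581 for Il1b and -0.47 to 0.072 for Il18 with occlusion under toxin. With toxin in the sham brain it gave -1.003 to 1.538 for Il1rn, -0.439 to 0.049 for Il1r1 and -0.135 to 0.017 for Il1rap, and in the occluded brain -0.091 to 0.126 for Il1r1 and -0.185 to 1.19 for Il1r2. For the interaction it gave -0.421 to 2.075 for Il1a, -0.023 to 0.465 for Il1r1, -0.144 to 0.024 for Il1rap, -0.245 to 0.297 for Il18 and -0.227 to 0.474 for Casp1. Il1a, Il1b, Il1rn, Il1r2 and Il1rl1 rest on few counts per library, which limits what can be detected in them.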
